A study of Homo sapiens with 4 samples.

Results

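The genes described here are the SR splicing factors (SRSF genes) and the heterogeneous nuclear ribonucleoproteins (HNRNP genes), chosen by gene symbol alone. They are 12 SRSF and 26 HNRNP genes, 38 of the 61806 genes in the table, after 139 pseudogene and readthrough symbols with the same start were left out. RNA was sequenced from JJ012, a human chondrosarcoma cell line, and 143B, a human osteosarcoma cell line. Both lines were kept detached from the culture surface, and for each there was 1 untreated control library and 1 library of cells given 1 mM melatonin for 72 h. With 1 library per condition there was no replicate error and no test: every interval below covers counting error only, and every difference is between libraries.

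SR proteins bind exonic RNA through RNA recognition motifs and carry a domain rich in arginine and serine, whose phosphorylation by SRPK and CLK kinases sets their nuclear import and activity. They mostly favour the inclusion of exons. The hnRNPs coat nascent transcripts, often oppose SR proteins at splice sites, and also act in RNA export, stability and translation. Many SRSF genes hold an ultraconserved poison exon, whose inclusion sends their own mRNA to nonsense-mediated decay.

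The libraries held between 15889564 and 19218343 counts, so a floor of 3 counts lay between 0.156 and 0.189 CPM (counts scaled to the library total). Of 8 cartilage markers 1 or 2 reached 1 FPKM in a library, and of 8 bone markers 2 or 3. In JJ012, the cartilage collagen gene COL2A1 had 0 counts in both libraries and the proteoglycan gene ACAN had 4 and 3 counts, while the cartilage regulator SOX9 was at 15.06 FPKM in the control and 6.16 FPKM after melatonin. FPKM scale the counts of a gene by its exonic length and by the depth of its library. In 143B, the bone genes SP7 and DMP1 had at most 1 count per library, and RUNX2, a regulator of bone formation, was at 4.28 and 2.75 FPKM. SPP1, the osteopontin gene listed with bone, was at 79.39 and 64.5 FPKM in JJ012 and at 0.4 and 0.53 FPKM in 143B. The summed level of 4 leukocyte markers was 10.9 FPKM in the JJ012 control and 4.18 FPKM in JJ012 after melatonin, most of it from CD3E, with the pan-leukocyte gene PTPRC at 0.14 and 0.02 FPKM. It was 0.15 and 0.05 FPKM in 143B. The share of mitochondrially encoded counts was 6.78% and 4.35% in JJ012 and 1.63% and 2.46% in 143B. The part of these differences in the results below was not tested, and fewer cells of a type cannot be told apart from less RNA per cell in bulk samples.

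A promoter window from RefSeq (GRCh38.p14), 250 bases before to 50 bases after an annotated start, was found for 34 of the 38 members, 48 windows in all. The CCAAT box (letters CCAAT, searched on both strands, so that it also reads ATTGG) was in a window of 19 of 23 HNRNP genes and of 2 of 11 SRSF genes, beside 43.1% of 9252 expressed protein-coding genes and 39.7% of all 27305 genes. The GC box (GGGCGG, or CCGCCC on the other strand) was in 17 of 23 HNRNP genes and 5 of 11 SRSF genes, beside 78.2% of expressed protein-coding genes. The TATA box (TATAAA or TTTATA) was in 3 HNRNP and 3 SRSF genes, beside 8.07%, and the E-box CACGTG, which reads the same on both strands, in 7 HNRNP genes, HNRNPM among them, and 0 SRSF genes, beside 12.7%. A gene with several starts had several chances to hold a motif, and a match is a description of these letters, not a binding site. The 100 bases before the start are shown for 4 SRSF genes whose level was lower after melatonin in JJ012 and for 4 HNRNP genes that hold the CCAAT box, with the CCAAT, GC and TATA boxes in capitals on either strand. The SRSF stretches are SRSF3 at chr6:36594262-36594361 (plus strand), SRSF6 at chr20:43457796-43457895 (plus), SRSF8 at chr11:95066819-95066918 (plus) and SRSF9 at chr12:120469749-120469848 (minus). The HNRNP stretches are HNRNPAB at chr5:178204433-178204532 (plus), HNRNPDL at chr4:82430463-82430562 (minus), HNRNPL at chr19:38852348-38852447 (minus) and HNRNPUL2 at chr11:62727458-62727557 (minus).
SRSF3: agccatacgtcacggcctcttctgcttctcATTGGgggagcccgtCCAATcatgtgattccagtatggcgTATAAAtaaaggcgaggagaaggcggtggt
SRSF6: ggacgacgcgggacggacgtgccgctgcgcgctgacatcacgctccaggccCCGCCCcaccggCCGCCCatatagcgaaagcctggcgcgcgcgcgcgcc
SRSF8: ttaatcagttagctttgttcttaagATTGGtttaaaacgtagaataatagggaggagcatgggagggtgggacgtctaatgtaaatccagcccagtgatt
SRSF9: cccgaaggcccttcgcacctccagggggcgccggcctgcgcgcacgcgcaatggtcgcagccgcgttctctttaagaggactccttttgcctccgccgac
HNRNPAB: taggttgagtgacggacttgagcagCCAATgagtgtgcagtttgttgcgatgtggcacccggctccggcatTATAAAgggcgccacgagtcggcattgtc
HNRNPDL: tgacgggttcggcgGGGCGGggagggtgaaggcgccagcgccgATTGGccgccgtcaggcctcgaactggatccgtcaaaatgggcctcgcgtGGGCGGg
HNRNPL: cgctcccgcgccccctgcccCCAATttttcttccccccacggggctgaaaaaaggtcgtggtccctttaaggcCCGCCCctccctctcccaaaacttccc
HNRNPUL2: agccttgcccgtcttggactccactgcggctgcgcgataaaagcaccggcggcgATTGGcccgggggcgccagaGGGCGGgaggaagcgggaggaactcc
SRSF3 and HNRNPAB held both a TATA box and a CCAAT box, SRSF6 held GC boxes alone, and SRSF9 held none of the 3 motifs in its 100 bases. In HNRNPDL, HNRNPL and HNRNPUL2 a CCAAT box stood with a GC box.

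Both families were expressed well above the typical gene in every library. Of the 12 SRSF genes 11 reached 1 FPKM in each library, with a median between 15.93 FPKM in JJ012 after melatonin and 26.6 FPKM in the 143B control. Of the 26 HNRNP genes, 20 or 21 reached it, with a median between 22.88 and 27.99 FPKM. The median of all genes with at least 1 FPKM was between 4.95 and 5.75 FPKM. The 5 highest members by mean FPKM were HNRNPK, HNRNPDL, SRSF5, HNRNPA1 and HNRNPF. Since FPKM divide by all exonic bases of a gene, and not by those of the transcript in use, the order depends on the length taken: with the longest coding transcript of GENCODE 29 it was HNRNPK, SRSF5, HNRNPH1, HNRNPA1 and HNRNPA2B1. The deposited exonic length was 1.85 times the longest coding transcript in the median SRSF gene, 1.62 times in the median HNRNP gene and 1.40 times in the median expressed protein-coding gene. The deposited lengths do not all match GENCODE 29, so these ratios in part reflect the annotations. HNRNPA0, for one, had 8713 exonic bases and a coding transcript of 8726. All 11 expressed SRSF genes had an annotated nonsense-mediated decay transcript, as did 13 of 21 expressed HNRNP genes and 42.9% of expressed protein-coding genes. Counts per gene do not separate such transcripts from coding ones.

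**Figure D1:**
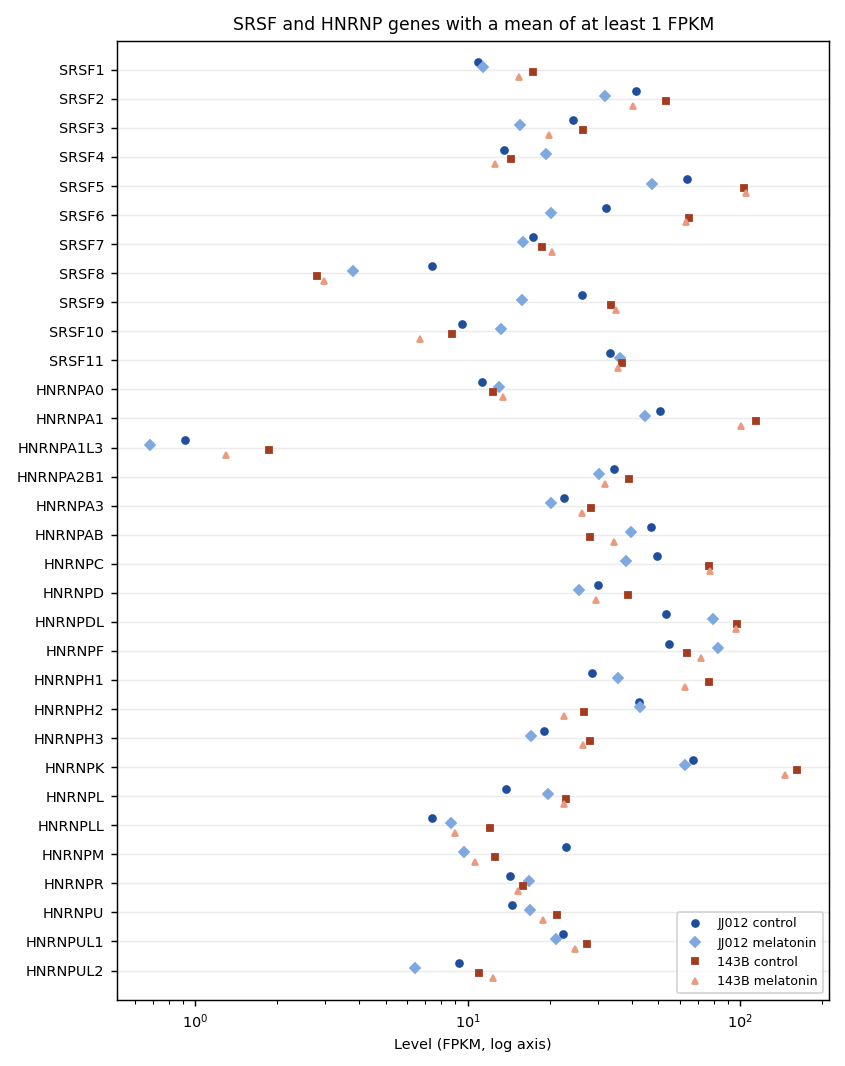
Level of each SRSF and HNRNP gene with a mean of at least 1 FPKM (rows) in the 4 libraries, in FPKM on a log axis, with 1 point per library. HNRNPK in the 143B control was the highest point at 161.57 FPKM, and the HNRNPM point of the JJ012 control, at 22.88 FPKM, stood above those of the other libraries.

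To see how melatonin changed these genes in JJ012, each level was compared with its control as a log2 fold change of FPKM plus 1, over genes with at least 1 FPKM in either library. HNRNPM, SRSF8, SRSF9, SRSF6, SRSF3 and the HNRNPC copy HNRNPCL2 were lower by at least 0.58, and HNRNPF was higher by at least 0.58. Of the 32 members that passed the filter, 1 was thus higher and 6 were lower, beside 19.6% of all 15794 genes tested that were higher and 18.6% that were lower, or 17.8% and 16.1% of the protein-coding ones. The median log2 fold change was -0.36 over 11 SRSF genes and -0.10 over 21 HNRNP genes, and 0.01 over all genes tested. With a running median over exonic length removed, the 2 family medians were -0.18 and -0.17, and under TPM they were -0.10 and 0.13. The median absolute log2 fold change was 0.44 over the SRSF genes, 0.21 over the HNRNP genes and 0.45 over all genes tested. At these depths, counting error was small: the 95% interval of the CPM ratio lay wholly above 0 for 11 members and wholly below 0 for 19 on the log2 scale, beside 36.9% and 35.2% of all genes tested. Intervals narrow with counts, and over genes with at least 5 FPKM in either library these shares were 45.4% and 39.0%.

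These directions depended on the scaling of the libraries. The summed FPKM of all genes was lower after melatonin in JJ012, so that rescaling to TPM moved the median log2 fold change of all genes tested from 0.01 to 0.27. Under TPM 22 of the 32 members were above 0, against 13 as deposited, 13 with TMM factors and 12 with DESeq2 size factors. The share of called genes that were higher went from 51.4% to 68.8%, and 6 members were higher and 3 lower. HNRNPM and SRSF8 stayed lower by at least 0.58 under all 4 scalings. HNRNPCL2 did too, but it passed the filter through the JJ012 control alone, at 1.4 FPKM, so it could only be called lower. With a filter of 5 FPKM, 5 members were lower. SRSF3, SRSF6 and SRSF9 had TPM log2 fold changes of -0.37, -0.39 and -0.44. With TMM factors these were -0.54, -0.57 and -0.61, so SRSF3 and SRSF6 were short of the threshold there too.

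**Figure D2:**
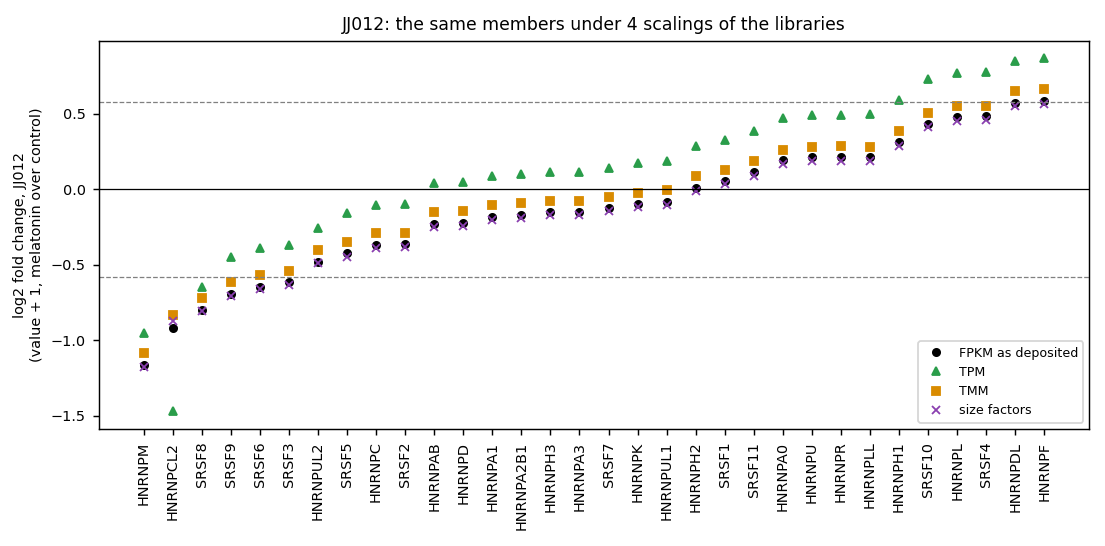
Log2 fold change of each tested member in JJ012, melatonin over control, on the value plus 1 scale, with 1 symbol for each of 4 scalings; dashed lines mark 0.58 and -0.58. TPM placed 31 members higher than the deposited FPKM and HNRNPCL2 lower, while the order of the other genes was nearly kept. The added 1 weighs less on TPM, whose values run larger than FPKM, so the lower HNRNPCL2 value is no shift of the libraries.

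Among the SR proteins, SRSF3, a small factor that also acts in mRNA export, was at 24.31 FPKM in the JJ012 control and 15.52 FPKM after melatonin, and at 26.60 and 19.81 FPKM in 143B. It was lower after melatonin in both lines, 1.57-fold in JJ012 (log2 CPM ratio -0.65, 95% interval -0.73 to -0.56) and 1.34-fold in 143B (-0.42, -0.50 to -0.35). Its close relative SRSF7 was at 17.43 and 15.93 FPKM in JJ012 and 18.75 and 20.39 FPKM in 143B. The ratio of SRSF3 to SRSF7, which no scaling of the libraries can move, went from 1.39 to 0.974 in JJ012 and from 1.42 to 0.972 in 143B. The log2 change of that ratio was -0.52 (-0.66 to -0.38) in JJ012 and -0.55 (-0.68 to -0.41) in 143B, so the 2 intervals overlapped.

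SRSF6, a regulator of exon inclusion that belongs with SRSF4 and SRSF5, was at 32.24 and 20.26 FPKM in JJ012 and 64.90 and 63.35 FPKM in 143B. It was 1.59-fold lower after melatonin in JJ012 (log2 CPM ratio -0.67, -0.76 to -0.58), while in 143B the interval of -0.09 to 0.02 included 0. SRSF4 was at 13.55 and 19.34 FPKM in JJ012 and 14.37 and 12.56 FPKM in 143B, so it was higher after melatonin in the first line and lower in the second. The SRSF4 to SRSF6 ratio therefore went from 0.420 to 0.955 in JJ012, a log2 change of 1.18 (1.06 to 1.30), and from 0.221 to 0.198 in 143B, a log2 change of -0.16 (-0.27 to -0.05). SRSF5, the most abundant SRSF gene, was at 63.90 and 47.37 FPKM in JJ012 and 103.16 and 104.75 FPKM in 143B. Its JJ012 log2 fold change of -0.42 was short of the threshold, and the SRSF4 to SRSF5 ratio went from 0.212 to 0.408 in JJ012.

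SRSF9 was at 26.19 and 15.84 FPKM in JJ012 and 33.66 and 35.11 FPKM in 143B, and its relative SRSF1, the founding SR protein, was at 10.88 and 11.35 FPKM and at 17.30 and 15.39 FPKM. SRSF9 was 1.65-fold lower after melatonin in JJ012 (log2 CPM ratio -0.72, -0.84 to -0.61), and SRSF1 differed little there, with an interval of -0.06 to 0.18. The SRSF1 to SRSF9 ratio went from 0.415 to 0.717 in JJ012 and from 0.514 to 0.438 in 143B. Of the exonic bases of SRSF9, 46.2% are shared with GATC on the opposite strand, which had 383 and 498 counts in JJ012 against 1860 and 945 for SRSF9. SRSF1 shares 56.6% of its exonic bases with a same-strand gene model that has no symbol here, which had between 5 and 64 counts. How shared reads were assigned is not given in the sources used here, so both levels are uncertain to that degree.

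SRSF2, a regulator of exon inclusion whose exonic bases overlap MFSD11 on the opposite strand by 36.7%, was at 41.40 and 31.97 FPKM in JJ012 and 53.48 and 40.41 FPKM in 143B. It was lower in both lines and short of the threshold, with log2 fold changes of -0.36 and -0.40. SRSF8, an expressed retrocopy of SRSF2, was at 7.38 and 3.81 FPKM in JJ012 (611 and 265 counts) and 2.81 and 2.98 FPKM in 143B (192 and 220 counts). It was 1.94-fold lower after melatonin in JJ012 (log2 CPM ratio -0.95, -1.17 to -0.74), and in 143B the interval of -0.20 to 0.37 included 0.

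SRSF10, which represses splicing when dephosphorylated, was at 9.55 and 13.27 FPKM in JJ012 and 8.76 and 6.66 FPKM in 143B. It was 1.39-fold higher in JJ012 and 1.31-fold lower in 143B, short of the threshold both times. SRSF11, a splicing factor with an SR domain, stayed between 33.30 and 36.76 FPKM in the 4 libraries. SRSF12, the relative of SRSF10, had 4 and 1 counts in JJ012 and 38 and 32 counts in 143B, and did not pass the filter.

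HNRNPM, a regulator of alternative exons, was at 22.88 FPKM in the JJ012 control and 9.67 FPKM after melatonin (2469 and 876 counts), and at 12.56 and 10.61 FPKM in 143B (1120 and 1022 counts). The JJ012 control was high and the other 3 libraries lay close together. HNRNPM was 2.37-fold lower after melatonin in JJ012 (log2 CPM ratio -1.24, -1.36 to -1.13) and 1.18-fold lower in 143B (-0.24, -0.37 to -0.12). The gene lies at chr19:8444767-8489114 on the plus strand (hg38), and the one annotated gene that shares its exonic bases had between 0 and 2 counts.

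The F and H proteins bind runs of guanines. HNRNPF was at 54.83 and 82.82 FPKM in JJ012 and 64.01 and 71.63 FPKM in 143B, higher after melatonin in both lines. The difference was 1.51-fold in JJ012 (log2 CPM ratio 0.60, 0.53 to 0.66) and 1.12-fold in 143B (0.16, 0.10 to 0.23). Its JJ012 log2 fold change of 0.59 was just past the threshold, and less than 0.58 with size factors. HNRNPH1 was at 28.53 and 35.66 FPKM in JJ012 and 76.50 and 62.57 FPKM in 143B, with opposite directions in the lines, while HNRNPH2 was at 42.45 and 42.76 FPKM and at 26.81 and 22.61 FPKM, and HNRNPH3 at 18.98 and 17.01 FPKM and at 28.10 and 26.45 FPKM. The ratio of HNRNPF to HNRNPH3 went from 2.89 to 4.87 in JJ012 and from 2.28 to 2.71 in 143B, and that of HNRNPF to HNRNPH1 from 1.92 to 2.32 and from 0.837 to 1.14. Each of the 3 ratios of HNRNPF to an H gene was thus higher after melatonin in both lines, with intervals above 0.

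HNRNPD (AUF1), which binds AU-rich elements and affects mRNA decay, was at 30.05 and 25.64 FPKM in JJ012 and 38.90 and 29.48 FPKM in 143B. Its relative HNRNPDL was at 53.25 and 79.63 FPKM in JJ012 and 97.18 and 96.68 FPKM in 143B, higher after melatonin in JJ012 (log2 CPM ratio 0.58, 0.53 to 0.63), and its log2 fold change of 0.57 was just short of the threshold. The HNRNPD to HNRNPDL ratio was lower after melatonin in both lines, from 0.564 to 0.322 in JJ012 (log2 change -0.81, -0.89 to -0.72) and from 0.400 to 0.305 in 143B (-0.39, -0.47 to -0.31). HNRNPAB, of the same group, was at 46.90 and 39.86 FPKM in JJ012 and 27.99 and 34.30 FPKM in 143B.

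HNRNPA1, which represses exons and moves between nucleus and cytoplasm, was at 50.86 and 44.70 FPKM in JJ012 and 114.68 and 100.42 FPKM in 143B, and HNRNPA2B1, its partner in the core particle, at 34.37 and 30.45 FPKM and at 39.01 and 31.94 FPKM. Both were slightly lower after melatonin in both lines, with log2 fold changes between -0.28 and -0.17, but under TPM their JJ012 values were 0.09 and 0.10. HNRNPA1 has 76 annotated copies, which held between 3.49% and 5.27% of the counts of gene and copies. Adding them left its log2 ratio at -0.18 in JJ012 and -0.19 in 143B. HNRNPC, which binds uridine tracts, was at 49.48 and 38.10 FPKM in JJ012 and 76.58 and 77.45 FPKM in 143B, lower in JJ012 alone by its intervals (-0.43 to -0.32 and -0.03 to 0.06), a difference between the lines of 0.39 (0.33 to 0.46) on the log2 scale.

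HNRNPK, which binds cytidine-rich RNA and DNA, was the highest member, at 67.35 and 62.86 FPKM in JJ012 and 161.57 and 146.49 FPKM in 143B. HNRNPL, which binds CA repeats, was at 13.85 and 19.69 FPKM in JJ012 and 22.95 and 22.54 FPKM in 143B, with log2 fold changes of 0.48 and -0.02. HNRNPU, a scaffold protein of the nucleus, was at 14.50 and 16.95 FPKM and at 21.35 and 18.89 FPKM, and HNRNPUL2 at 9.29 and 6.39 FPKM and at 11.03 and 12.34 FPKM. The HNRNPU to HNRNPUL2 ratio went up in JJ012 (log2 change 0.77, 0.61 to 0.92) and down in 143B (-0.34, -0.47 to -0.20). HNRNPUL2 shares 44.1% of its exonic bases with the readthrough HNRNPUL2-BSCL2, which had between 0 and 19 counts, and HNRNPU shares 15.6% with COX20 on the opposite strand. HNRNPLL, a relative of HNRNPL known for CD45 splicing in lymphocytes, was at 7.38 and 8.71 FPKM in JJ012 and 12.05 and 8.99 FPKM in 143B. The remaining expressed genes, HNRNPA0, HNRNPA3, HNRNPR and HNRNPUL1, lay between 11.31 and 28.26 FPKM in the 4 libraries, with log2 fold changes between -0.15 and 0.21 after melatonin.

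The copies of HNRNPC and HNRNPA1 had low counts. HNRNPCL2 had 31 and 5 counts in JJ012 and 0 in both 143B libraries, and HNRNPCL3 had 32 and 25 counts in JJ012 and 0 in 143B. The JJ012 control was thus at least 8.54-fold higher than the 143B control for HNRNPCL2 and at least 8.82-fold higher for HNRNPCL3, with the floor of 3 counts per library in place of 0. HNRNPCL2 was 5.21-fold lower after melatonin in JJ012 (log2 CPM ratio -2.38, -4.10 to -1.01). These genes are near-identical to each other, so the split of reads among them is uncertain. HNRNPCL1 had at most 2 counts, HNRNPCL4 at most 1, and HNRNPA1L2 had 0 counts in every library, which allows a level up to the floor. HNRNPA1L3 was between 0.68 and 1.86 FPKM.

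In 143B, melatonin left 0 of 32 members higher and 0 lower by at least 0.58, beside 6.09% and 6.65% of 14135 genes tested, or 3.48% and 2.6% of the protein-coding ones. Log2 fold changes ran from -0.41 in SRSF3 to 0.28 in HNRNPAB, with a median of -0.05 over 11 SRSF genes and -0.14 over 21 HNRNP genes, and 0.03 over all genes tested. The counting interval lay wholly above 0 for 5 members and wholly below 0 for 17, beside 28.4% and 23.5% of all genes tested. Over genes with at least 5 FPKM in either library these shares were 33.4% and 30.9%. The largest differences below 0 after SRSF3 were in SRSF2, HNRNPD, HNRNPLL and SRSF10.

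Over the 31 members tested in both lines, the 2 sets of differences had little relation (Pearson's r -0.03 and Spearman's rho -0.07 across genes, which are not independent replicates). By counting intervals, 10 members were lower in both lines, beside 8.48% of 11822 genes, and 2, HNRNPA0 and HNRNPF, were higher in both, beside 14.2%. SRSF4, SRSF10, HNRNPH1, HNRNPLL and HNRNPU were higher in JJ012 and lower in 143B (5 of 31, beside 11.0%), and SRSF7, HNRNPAB and HNRNPUL2 were the reverse (3 of 31, beside 10.5%). Under TPM the JJ012 values of SRSF7 and HNRNPAB turned to 0.14 and 0.04, and 7 of the 10 members lower in both lines were above 0 in JJ012, leaving SRSF2, SRSF3 and HNRNPM lower in both. The interval of the difference between the lines excluded 0 for 24 of 31 members, beside 68.9% of all genes. Intervals narrow with counts, and no share over genes at the members' levels was computed for both lines together.

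**Figure D3:**
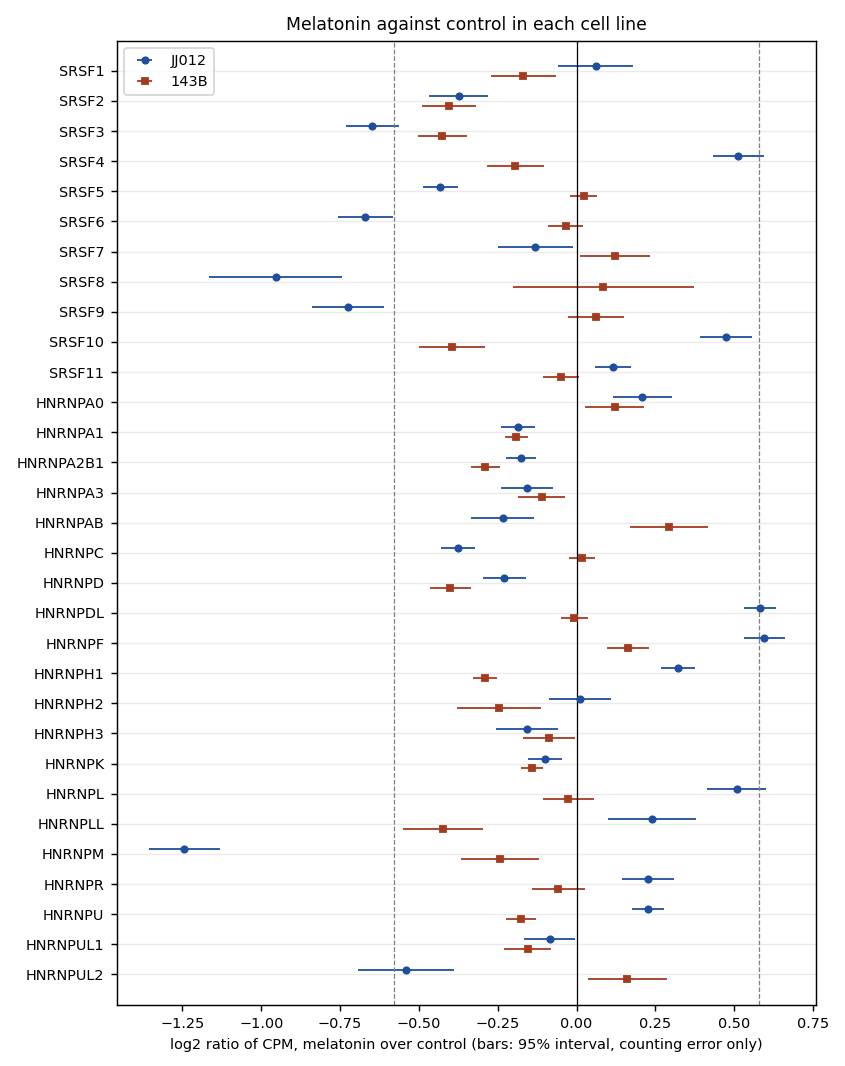
Log2 ratio of CPM, melatonin over control, for the 31 members tested in both lines (rows), in JJ012 (circles) and 143B (squares), with 95% intervals that cover counting error only and dashed lines at 0.58 and -0.58. HNRNPM lay farthest below 0 in JJ012 at -1.24, and no 143B point passed a dashed line.

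The families were also summed. The SRSF genes came to 280.18 FPKM in the JJ012 control and 230.74 FPKM after melatonin, and to 381.08 and 357.35 FPKM in 143B. The HNRNP genes came to 618.76 and 633.75 FPKM in JJ012 and 917.22 and 854.36 FPKM in 143B. The SRSF to HNRNP ratio went from 0.453 to 0.364 in JJ012, a log2 change of -0.31, and from 0.415 to 0.418 in 143B, a log2 change of 0.01. By summed counts per library total, the JJ012 log2 ratios were -0.17 for the SRSF and 0.03 for the HNRNP genes. In 143B they were -0.10 and -0.13. The HNRNP sum weighs its highest genes most: by counting intervals in JJ012, 12 of 21 HNRNP genes were lower and 8 higher. Log2 fold changes in JJ012 moved with exonic length, and such a trend does not cancel in a ratio of genes. With the running median over exonic length removed, the JJ012 medians of the 2 families were -0.18 and -0.17. The ratios were not recomputed that way. Of 18 ratios between related members, 15 differed after melatonin by their intervals in JJ012 and 15 in 143B, in a direction that depends on which gene is taken first, and 8 in JJ012 and 1 in 143B were past 0.58. No share over other pairs of genes was computed. The 1 in 143B was HNRNPD to HNRNPAB, from 1.39 to 0.859.

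**Figure D4:**
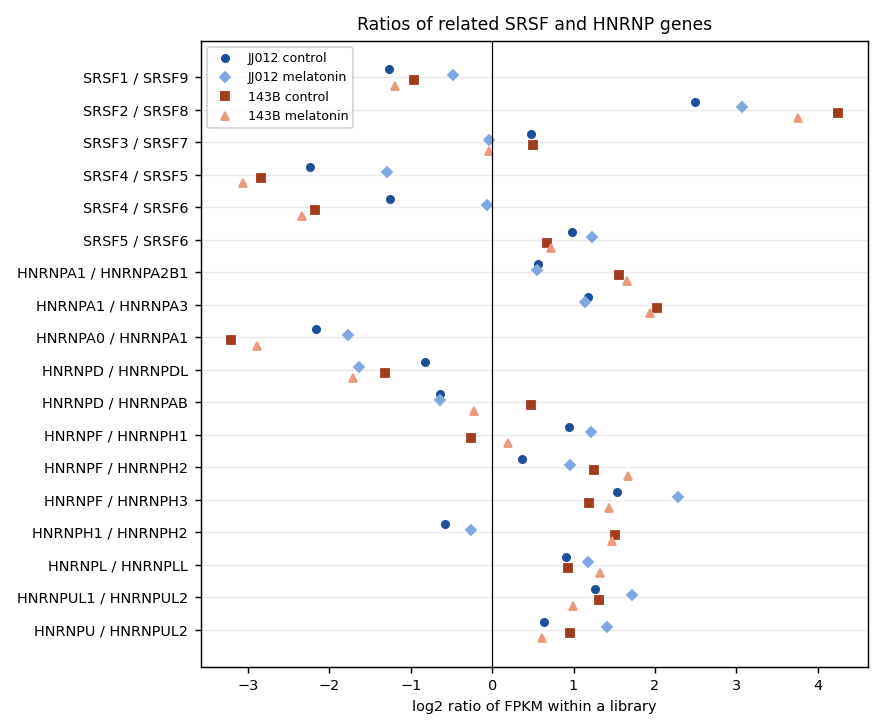
Log2 ratio of FPKM between 18 pairs of related SRSF and HNRNP genes (rows), with 1 point for each of the 4 libraries. The ratio is taken within a library, so its scaling cancels, but a trend with exonic length does not. The SRSF3 to SRSF7 points of the melatonin libraries, at ratios of 0.974 and 0.972, lay side by side below those of the controls, and the SRSF4 to SRSF6 point of JJ012 after melatonin stood near 0.

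The control libraries of the lines differed more than each did from its melatonin library, with a median absolute log2 fold change over the members of 0.54 against 0.27 in JJ012 and 0.15 in 143B, beside 0.94, 0.45 and 0.21 over all genes tested. Of 33 members tested, 10 were at least 0.58 higher in the 143B control than in the JJ012 control and 5 were at least 0.58 lower, beside 27.4% and 41.3% of 16929 genes tested, or 25.1% and 39.6% of the protein-coding ones. The counting interval lay wholly above 0 for 25 members and wholly below 0 for 6, beside 35.1% and 50.8% of all genes tested. Over genes with at least 5 FPKM in either library these shares were 41.1% and 52.4%. The median was 0.32 over the members and -0.29 over all genes tested. TPM and TMM factors moved the median of all genes tested to 0.01 and -0.01. The members did not move toward 0: 27 of 33 were above 0 as deposited, and 28 under TPM and with TMM factors. Under TPM, 21 members were higher and 3 lower by at least 0.58, and the share of called genes that were higher went from 39.9% to 50.7%. The members higher in 143B were HNRNPH1 (2.68-fold), HNRNPK (2.40-fold), HNRNPA1 (2.25-fold), SRSF6 (2.01-fold), HNRNPDL, HNRNPL, SRSF5, HNRNPLL, SRSF1 and HNRNPC. Those lower were SRSF8 (2.63-fold), HNRNPM (1.82-fold), HNRNPAB (1.68-fold), HNRNPH2 (1.58-fold) and HNRNPCL2. HNRNPCL2 passed the filter through the JJ012 control alone, so it could only be called lower. HNRNPM, HNRNPAB and HNRNPH2 were no longer past the threshold under TPM, at -0.48, -0.36 and -0.28, nor with TMM or size factors, and HNRNPAB and HNRNPH2 turned to 0.19 and 0.15 with the running median over exonic length removed. The HNRNPH1 to HNRNPH2 ratio was 0.672 in the JJ012 control and 2.85 in the 143B control, a log2 difference of 2.09 (1.96 to 2.21), and the HNRNPA1 to HNRNPA2B1 ratio was 1.48 and 2.94.

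Other splicing genes were taken from 5 lists of 143 genes, and their counts in JJ012 stand beside the 19.6% of all genes tested that were higher and the 18.6% that were lower. Of the SR kinases, phosphatases and import factors, 3 of 10 tested were higher and 0 lower after melatonin in JJ012, with a median of 0.47, and the kinases SRPK1 and SRPK2, which phosphorylate SR proteins in the cytoplasm, went from 5.16 to 13.22 FPKM and from 8.65 to 16.79 FPKM. Of the SR-related proteins, 7 of 22 were higher and 1 was lower (median 0.29). The spliceosome scaffold SRRM2 went from 40.92 to 97.36 FPKM and SCAF4 from 3.74 to 8.93 FPKM, while the exon activator TRA2A went from 10.7 to 6.43 FPKM. Of the nonsense-mediated decay factors, 3 of 15 were higher and 1 lower (median 0.36), with the kinase SMG1 at 5.39 and 19.16 FPKM and RBM8A of the exon junction complex at 15.67 and 9.23 FPKM.

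In the core spliceosome, 5 of 41 were higher and 3 lower (median 0.02), with SF3A1 of the U2 particle at 19.52 and 35.74 FPKM and PRPF4 at 12.4 and 22.04 FPKM, and the Sm proteins SNRPE at 26.12 and 15.66 FPKM and SNRPB at 13.82 and 8.23 FPKM. Of the other regulators, 7 of 35 were higher and 4 lower (median 0.03), with PTBP3 at 12.39 and 32.0 FPKM, MBNL1 at 9.82 and 20.89 FPKM, the cold-shock protein RBM3 at 36.6 and 21.28 FPKM and PCBP4 at 13.54 and 8.14 FPKM. In 143B, 1 of 126 tested genes of the 5 lists passed 0.58 in either direction, beside 12.7% of all genes and 6.09% of protein-coding genes, LUC7L of the SR-related proteins, at 9.97 and 16.93 FPKM. Between the controls, CLK1, a nuclear kinase of SR proteins, was higher in 143B by 3.48 on the log2 scale, and its relative CLK2 had a log2 fold change of -1.87. Log2 fold changes in JJ012 moved with exonic length, with a Spearman's rho across genes of 0.24 over all genes tested and 0.42 over 32 members. With the running median over exonic length removed, 1 member was higher and 5 lower, with HNRNPCL2 at -0.56 short of the threshold, and the listed genes past the threshold went from 34 to 24 of 123, beside 38.2% of all genes and 33.9% of protein-coding genes past it as deposited.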

How the data were processed

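Poly(A) RNA of the 4 libraries was sequenced as paired ends. The authors deposited raw counts for each gene. They also deposited FPKM, in which these counts are scaled by exonic length and library total. The submitters' processing notes name cutadapt 1.9.1, HISAT2 2.2.1, HTSeq 0.6.1, DESeq2 and the build hg38, while strand and multi-mapping settings are not given in the sources used here. Samples were grouped by their labels, and table columns were matched to samples by cell line name, the suffix T being read as melatonin-treated; 0 value columns were left unmatched.

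Melatonin was compared with control in each line, and the 143B control with the JJ012 control. Log2 fold changes were computed from FPKM with a pseudocount of 1, which understates changes of low genes, over genes with at least 1 FPKM in either library, and called at 0.58. Counts gave CPM ratios with exact (Clopper-Pearson) 95% intervals for single genes, and intervals from reciprocal counts for ratios of genes and for differences between lines. Count tests were not used, since no condition had replicates. The named genes are members past 0.58 in any comparison, the 5 highest SRSF and HNRNP genes, members at the floor of 3 counts, with an overlapping gene or a copy, and, from each list, up to 2 genes that rose most and 2 that fell most in a line, among those past 0.58 with at least 5 FPKM; any member may be named. A gene of this rule is not reported here. Members, lists and alternatives were chosen with earlier results of these data known. The alternatives were a pseudocount of 0.1, filters, TPM, TMM, DESeq2 size factors, centring, a running median over exonic length and a threshold of 1. Coding-transcript length, protein-coding genes alone and added copies were chosen after seeing the data. The computation was tested on simulated data. Transcripts and shared exonic bases came from GENCODE 29, whose lengths can differ from the deposited exonic lengths. Python 3.11.15, pandas 2.3.3, scipy 1.17.1, R 4.3.3, edgeR 4.0.16 (TMM factors) and DESeq2 1.42.0 (size factors) were used.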

Additional observations from a re-analysis of the deposited data

Results flagged for a closer look

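The melatonin differences of 8 members ran in opposite directions in the 2 lines, with counting intervals on opposite sides of 0. Of 31 members tested in both lines, 5 were higher in JJ012 and lower in 143B, beside 11.0% of 11822 genes. The reverse held for 3, beside 10.5%. The difference of the log2 CPM ratios, 143B minus JJ012, was -0.71 for SRSF4, -0.87 for SRSF10, -0.61 for HNRNPH1, -0.66 for HNRNPLL and -0.40 for HNRNPU, which were higher in JJ012 and lower in 143B. It was 0.25 for SRSF7, 0.53 for HNRNPAB and 0.70 for HNRNPUL2, which were lower in JJ012 and higher in 143B. Under TPM the JJ012 log2 fold changes of SRSF7 and HNRNPAB turned to 0.14 and 0.04. With the running median over exonic length removed, those of HNRNPH1, HNRNPAB and HNRNPLL in JJ012 were 0.04, 0.14 and 0.15. SRSF4, SRSF10, HNRNPU, SRSF7 and HNRNPUL2 were not recomputed that way, so their directions without the length trend are not known. With 1 library per condition, each direction rests on 1 pair of libraries, and the difference was not tested.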

How the results depend on the processing

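No paired analysis was possible because each condition had 1 library and the labels carry no replicate numbers, and for the same reason no library could be left out. Under the alternatives, 101 values that answer a comparison stayed within the set limits and 28 moved. A value within the limits could still change in size or sign. With TPM, the JJ012 HNRNP median went from -0.10 to 0.13 and the SRSF median from -0.36 to -0.10, and both were counted among those that stayed.

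In JJ012 the 1 member higher became 6 with TPM, 2 with TMM factors, and 0 with centring, size factors or a threshold of 1. The 6 lower became 3 with TPM, 4 with TMM factors, 5 with the running median over exonic length removed and 1 at a threshold of 1. The 34 listed splicing genes past the threshold became 52 with TPM and 7 at a threshold of 1. In 143B the 1 listed gene became 6 with a pseudocount of 0.1, 7 with TPM, 2 with the running median over exonic length removed and 0 at a threshold of 1. Between the controls, the 10 members higher became 21 with TPM, 17 with centring, 18 with TMM factors, 17 with size factors, 16 with the running median removed and 3 at a threshold of 1. The 5 lower became 3, 2, 2, 2, 1 and 2 in the same order. The HNRNP median of 0.34 became 0.70 with TPM and 0.68 with TMM factors. Of 127 listed genes tested between the controls, 64 were past 0.58 in either direction, beside 68.7% of all genes and 64.6% of protein-coding genes. At a threshold of 1 the 64 became 28. HNRNPAB and HNRNPH2, lower in the 143B control, turned to 0.19 and 0.15 with the running median removed. The cause was not tested, except that a higher threshold passes fewer genes by construction. Of the values for single genes and other summaries, 338 stayed, 164 moved and 2 that had passed the threshold reversed. Log2 fold changes of single members were followed through the alternatives for 20 members only. Of 359 such values, 17 changed sign, 5 of them with TPM and 6 with the running median removed. Over all 32 members tested in JJ012, those above 0 went from 13 as deposited to 22 with TPM. Depth limits SRSF12 and the HNRNPCL and HNRNPA1L genes, at 57 counts or fewer, and the lack of replicates limits every member.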
